A study of Mus musculus with 21 samples.

Results

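The 10 genes described here mark T cells and killer lymphocytes. They were 10 of the 27373 gene names on the array and were followed across epididymal fat, skin and liver and between mice with and without the kinase JNK1. The members were the CD3 chain genes Cd3d, Cd3e and Cd3g, the coreceptor genes Cd4, Cd8a and Cd8b1, and the killer cell genes Gzma, Gzmb, Prf1 and Nkg7. A gene was taken where the gene name in the scanner files equalled its symbol, which gave 15 of the 41174 probes: 4 members had several probes and 6 had 1. All mice were male C57Bl6/J, 45 weeks old, and all had eaten a high-fat diet from week 5 to week 44. Mice labelled JNK1 knock-out (KO) were set against mice labelled wild type (WT). The labels do not say how the JNK1 gene was disrupted, and both genotypes ate the high-fat diet, so no group on a standard diet entered. Total RNA was labelled with Cy3 and hybridised to one-colour Agilent mouse arrays. Values are given as log2 of the processed intensity relative to the array's 75th percentile, so 0 is the level below which 75% of probes lie and a step of 1 is a doubling.

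T cells carry an antigen receptor whose signals are passed on by the CD3 chains, and the coreceptors CD4 and CD8 divide most of them into helper and cytotoxic cells. Cytotoxic T cells and natural killer (NK) cells kill by releasing granules: perforin, made from Prf1, opens the target's membrane, and granzymes, made from Gzma and Gzmb, are proteases that then enter. Nkg7 encodes a granule membrane protein that takes part in this release. CD8 T cells gather in the fat of obese mice, the liver's sinusoids are rich in NK cells and T cells, and the mouse epidermis holds gamma delta T cells that carry CD3 but neither CD4 nor CD8.

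The files held 4 KO and 4 WT arrays of fat, 4 KO and 3 WT arrays of skin, and 3 KO and 3 WT arrays of liver, although the series text speaks of quadruplicates. Of the 21 scanner files, that of fat WT 2 correlated with the skin arrays at r between 0.863 and 0.914 and with the other fat arrays at r between 0.725 and 0.766. It was left out, and fat WT 2 enters only through its column in the value table that the authors deposited, which correlated with fat at r between 0.953 and 0.98. On the 20 arrays used, 38.9% to 57.2% of probes were well above background by the scanner software's own call. Mapk8, which encodes JNK1, was at -3.72 to -2.98 in KO fat, against -1.01 to -0.79 in WT fat, a difference of -2.40 (limma, adjusted p = 0.0252). Mapk8 lay at -4.13 in KO liver and -1.76 in WT liver (adjusted p = 0.216), and in skin it was well above background on 0 of 4 KO and 2 of 3 WT arrays and was not tested. Adipocyte markers averaged 7.23 to 7.53 on the fat arrays and keratinocyte markers 8.11 to 9.15 on the skin arrays, where skeletal muscle markers also averaged 6.87 to 8.85. Adipocyte markers were high in skin too: Adipoq averaged 6.90 in KO and 7.36 in WT skin, against 7.92 and 7.91 in fat. The median fat minus skin difference of the 5 adipocyte markers was 0.78, and 3 passed as higher in fat. Hepatocyte markers averaged 6.71 to 7.34 on the liver arrays, where keratinocyte markers ranged from -3.09 to -0.17 and skeletal muscle markers from -4.91 to 0.14. Nothing in the labels ties arrays to individual mice, so a p-value here reflects only how far these arrays scatter, which may be technical.

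The CD3 genes were read in all 3 tissues, and each had its own order. Cd3d, the gene of the CD3 delta chain, ran from 0.37 to 1.76 in fat (median 0.96), from 0.61 to 0.98 in skin (median 0.78) and from -0.79 to 1.13 in liver (median 0.55). It was well above background on every array, and the ranges of all 3 tissues overlapped. Its differences were 0.53 for fat minus liver (SE 0.252, adjusted p = 0.0651), 0.33 for skin minus liver (adjusted p = 0.250) and 0.21 for fat minus skin (adjusted p = 0.457). None of the 3 passed the 0.05 threshold after Benjamini-Hochberg adjustment over all genes. The first passed with normexp background correction (0.56, adjusted p = 0.0239), quantile normalization (0.62, adjusted p = 0.0321), the authors' value table (0.54, adjusted p = 0.0436) and the percentile taken over probes detected on all arrays (0.83, adjusted p = 0.00749), and without any 1 of liver KO 2, fat KO 4, liver WT 2 and fat WT 3 (0.61 to 0.74). The second passed with the value table (0.61, adjusted p = 0.0311), with that percentile (0.59, adjusted p = 0.0479) and without liver WT 2 (0.54, adjusted p = 0.0466).

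Cd3e, the gene of the epsilon chain, separated fat from skin. It ran from -1.55 to -0.83 in fat (median -1.25), from 0.02 to 0.81 in skin (median 0.35) and from -1.86 to 0.26 in liver (median -0.12). Every fat array lay below every skin array, while the liver arrays spanned both. Cd3e was 3.14-fold lower in fat than in skin (log2 difference -1.65, SE 0.252, adjusted p = 1.76e-05), lower in fat than in liver (-0.87, SE 0.261, adjusted p = 0.00623) and higher in skin than in liver (0.78, SE 0.260, adjusted p = 0.0122). With the KO arrays alone the gap between fat and liver was -0.62 (adjusted p = 0.225). The lowest liver value of Cd3e, -1.86, was that of KO 1, the other 5 lying between -0.39 and 0.26.

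Cd3g, the gene of the gamma chain, was higher in skin than in liver. Its levels ran from -2.15 to -0.27 in fat (median -1.62), from -1.27 to -0.45 in skin (median -0.70) and from -3.44 to -1.0 in liver (median -1.50). The difference was 0.98 for skin minus liver (SE 0.322, adjusted p = 0.0114), against 0.29 for fat minus liver (adjusted p = 0.423) and -0.68 for fat minus skin (adjusted p = 0.0593). The last of these passed with normexp (-0.65, adjusted p = 0.00179), quantile normalization (-0.74, adjusted p = 0.0375), the value table (-0.93, adjusted p = 0.00111) and slide as a fixed term (-1.22, adjusted p = 1.30e-04), and without fat KO 2 (-0.82, adjusted p = 0.0256). Thus 2 of the 3 CD3 genes were higher in skin than in liver over both genotypes. Each call was lost in 1 genotype (limma): Cd3e with KO arrays alone (0.85, adjusted p = 0.106) and Cd3g with WT arrays alone (1.05, adjusted p = 0.115).

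The probes that read Cd3d and Cd3g are shown because these genes lie beside each other on chromosome 9 in opposite directions. Each probe has 60 bases, copied from the scanner files with their mm9 coordinates, and both spans are longer than the probe, so each crosses an intron. Cd3d lies on the plus strand at chr9:44794171-44794402 and Cd3g on the minus strand at chr9:44781716-44782300.
Cd3d: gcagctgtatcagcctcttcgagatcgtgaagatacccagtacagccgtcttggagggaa
Cd3g: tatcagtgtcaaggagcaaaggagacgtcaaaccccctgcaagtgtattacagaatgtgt
In RefSeq's GRCm38.p6 table the starts of Cd3d and Cd3g are 1355 bases apart and those of Cd3d and Cd3e 27825 bases apart. Promoters are shown for these 3 genes and for Cd8a because levels of Cd3d and Cd3g went together between arrays of fat and liver while those of Cd3e did not, and every skin array of Cd8a lay below every array of fat and liver. Each holds the 250 bases before the start, with capitals on the ETS motif AGGAAG and on the E-box CANNTG, searched on both strands, with no overlap between them. They lie at chr9:44981536-44981785 (Cd3d, plus strand), chr9:44980432-44980681 (Cd3g, minus strand), chr9:45009612-45009861 (Cd3e, minus strand) and chr6:71373177-71373426 (Cd8a, plus strand).
Cd3d: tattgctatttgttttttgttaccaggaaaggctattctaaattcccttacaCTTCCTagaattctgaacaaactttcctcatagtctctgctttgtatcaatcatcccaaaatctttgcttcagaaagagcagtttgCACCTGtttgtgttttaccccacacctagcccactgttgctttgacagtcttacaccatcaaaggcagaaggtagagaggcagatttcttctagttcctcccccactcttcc
Cd3g: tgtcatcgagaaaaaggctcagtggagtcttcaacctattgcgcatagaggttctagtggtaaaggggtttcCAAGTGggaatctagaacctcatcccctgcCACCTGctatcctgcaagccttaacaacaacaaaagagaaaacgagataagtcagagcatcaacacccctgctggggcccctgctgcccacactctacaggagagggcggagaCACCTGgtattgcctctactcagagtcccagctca
Cd3e: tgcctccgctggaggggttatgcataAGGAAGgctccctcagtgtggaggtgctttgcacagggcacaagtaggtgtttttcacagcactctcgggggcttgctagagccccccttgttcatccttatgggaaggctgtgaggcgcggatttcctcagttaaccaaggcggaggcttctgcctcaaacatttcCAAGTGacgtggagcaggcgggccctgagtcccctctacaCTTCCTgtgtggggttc
Cd8a: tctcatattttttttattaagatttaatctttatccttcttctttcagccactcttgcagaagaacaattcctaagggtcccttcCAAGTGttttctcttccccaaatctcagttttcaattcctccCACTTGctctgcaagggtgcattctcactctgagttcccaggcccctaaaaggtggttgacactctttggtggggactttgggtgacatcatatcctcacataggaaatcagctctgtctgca
The ETS letters stand 198 bases before the start in Cd3d and 224 and 17 bases before it in Cd3e, with no match in the windows of Cd3g and Cd8a. E-box letters stand 112 bases before the start in Cd3d, 178, 148 and 35 in Cd3g, 57 in Cd3e, and 165 and 123 in Cd8a. The GATA motif AGATAA had 1 match, 104 bases before the start of Cd3g. The RUNX motif TGTGGT and the TATA letters TATAAA had 0 matches in these 4 windows. Of all 32851 promoters of the table, 29.5% hold the ETS letters, 66.2% an E-box, 9.99% the GATA letters, 14.0% the RUNX letters and 12.4% the TATA letters. Of the 10 members, 8 had a promoter in the table.

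The CD8 genes were lower in skin than in fat and liver. Cd8a, the gene of the CD8 alpha chain, ran from -2.47 to 0.16 in fat (median -0.83), from -5.66 to -2.85 in skin (median -4.80) and from -2.32 to 0.84 in liver (median 0.21). Its probe passed the scanner's background call on 7 of 7 fat arrays, 0 of 7 skin arrays and 6 of 6 liver arrays, and every skin array lay below every array of the other tissues. Cd8a was therefore at least 7.26-fold lower in skin than in liver (log2 difference -4.41, SE 0.503, adjusted p = 3.79e-07) and at least 4.08-fold higher in fat than in skin (3.58, SE 0.487, adjusted p = 4.85e-06). Such a bound sets the bright tissue's mean against the lowest signal that the arrays of the dim tissue could call, or the probe's own where that was higher. It holds for the main processing only. The size of these gaps depended on the processing: skin minus liver was -1.48 with normexp (adjusted p = 1.36e-04) and -2.77 with the authors' value table, and fat minus skin was 0.76 with normexp (adjusted p = 0.0195) and 1.81 with the value table, so that all 4 of these gaps are smaller than the bounds just given.

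Cd8b1, the gene of the CD8 beta chain, followed the same order. It ran from -0.11 to 1.96 in fat (median 0.90), from -2.86 to -1.16 in skin (median -2.05) and from 0.06 to 2.43 in liver (median 1.63). Again every skin array lay below all others, by 11.7-fold against liver (log2 difference -3.55, SE 0.372, adjusted p = 1.23e-07), while fat was 7.73-fold above skin (2.95, SE 0.360, adjusted p = 1.37e-06). With normexp these were -2.49 and 2.05. Between fat and liver, the differences were -0.83 for Cd8a (95% interval -1.89 to 0.23, adjusted p = 0.145) and -0.60 for Cd8b1 (-1.39 to 0.18, adjusted p = 0.152). Without liver WT 1, the lowest liver array for both, they were -1.26 (adjusted p = 0.0207) and -0.92 (adjusted p = 0.0233). Both also passed with slide as a fixed term (-1.39, adjusted p = 0.0165, and -1.15, adjusted p = 0.00214), and Cd8a with normexp (-0.72, adjusted p = 0.0315), the value table (-0.96, adjusted p = 0.0262) and the mean of all its probes (-0.80, adjusted p = 0.0449). In this bulk RNA, fewer cells of a type and less RNA per cell cannot be told apart.

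The other Cd8a probes were dimmer and pointed the same way. A probe printed as 10 spots per array gave -2.46 for skin minus liver and 2.07 for fat minus skin, and its spots scattered by a median SD of 0.107 within an array of fat or liver. The remaining probe, shown because it gave the smallest gaps of the 3, lies at chr6:71323885-71323944 in mm9 and gave -1.87 for skin minus liver and 0.70 for fat minus skin. Neither was well above background on any of the 7 skin arrays.
Cd8a: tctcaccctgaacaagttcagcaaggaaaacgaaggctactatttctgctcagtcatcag
Cd4, the helper coreceptor gene, was hardly read. Its probe with 10 spots lay at -6.43 to -5.21 in fat and at -5.40 to -5.18 in liver, well above background on 0 arrays of either. In skin it was well above background on 2 of 7 arrays, KO 1 at -1.81 and KO 3 at -3.48, where 7 and 8 of the 10 spots passed. The other 5 skin arrays lay between -5.16 and -4.44, and Cd4 was tested in no comparison. A second Cd4 probe, with 1 spot, was well above background on 0 arrays of any tissue. Its means were -4.99 in KO skin and -4.97 in WT skin, so it did not show the signal of KO 1 and KO 3.

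**Figure D1:**
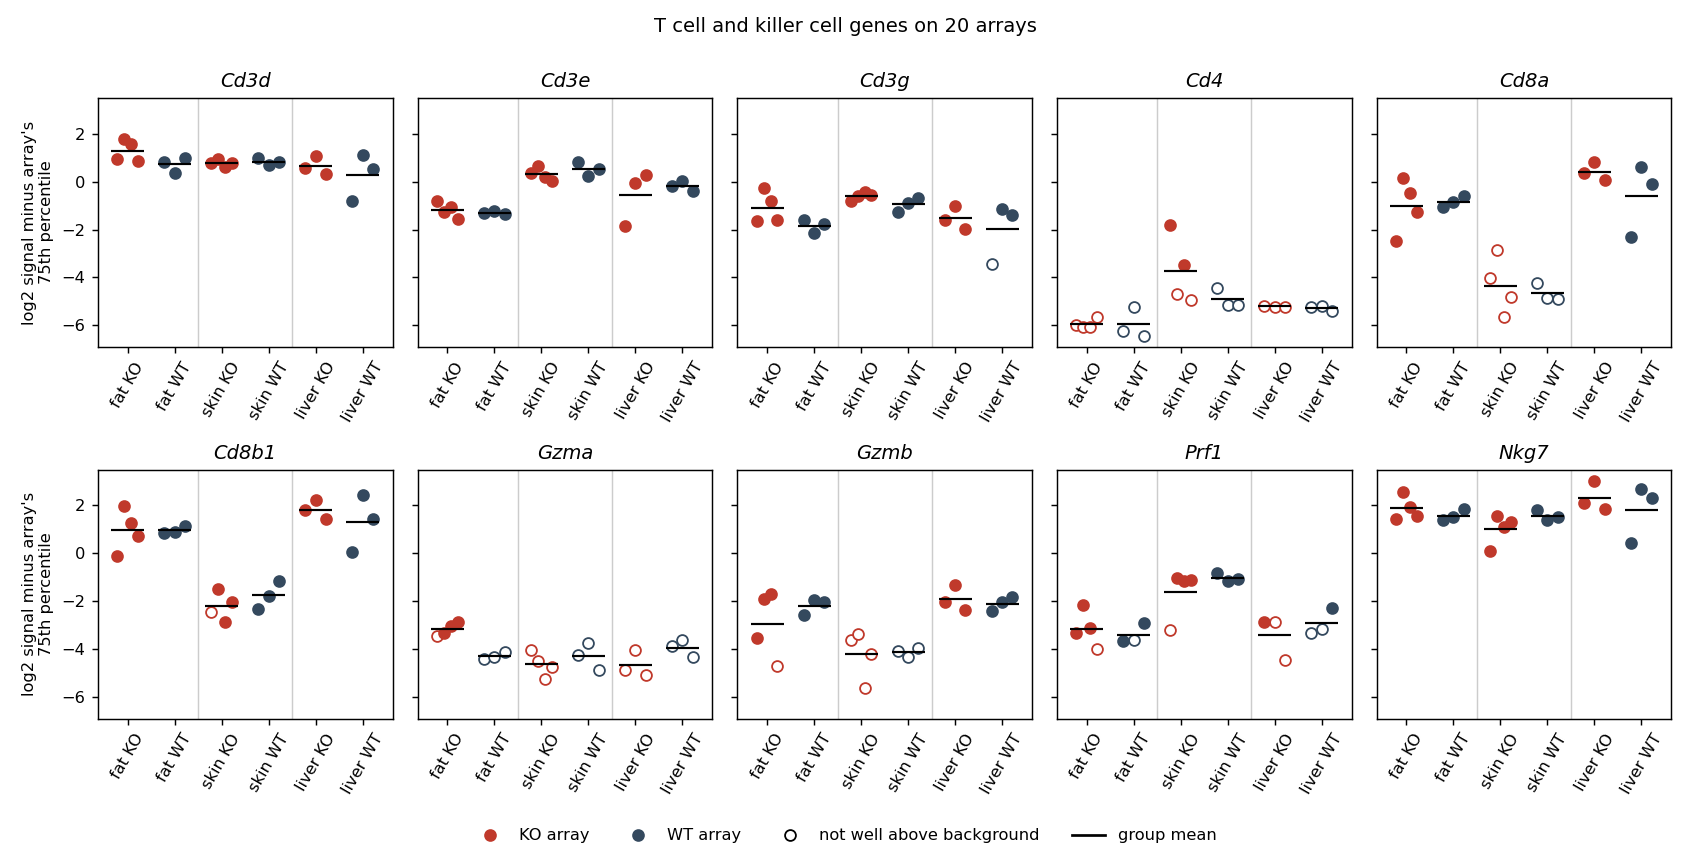
Log2 level of each of the 10 genes relative to the array's 75th percentile (vertical axis), 1 point per array, for fat, skin and liver with KO left of WT; open points are not well above background and lines are group means. Cd8a and Cd8b1 lie lowest in skin, Cd3e and Prf1 highest there by mean, and Cd4 is well above background on 2 of 20 arrays only.

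The killer cell genes did not share an order. Prf1, the perforin gene, ran from -4.00 to -2.15 in fat (median -3.31), from -3.20 to -0.83 in skin (median -1.13) and from -4.46 to -2.28 in liver (median -3.01). It was well above background on 5 of 7 fat arrays, 6 of 7 skin arrays and 2 of 6 liver arrays, and 6 of the 7 skin arrays lay above every array of fat and liver. Prf1 was 3.56-fold higher in skin than in liver (log2 difference 1.83, SE 0.388, adjusted p = 3.83e-04) and 3.85-fold lower in fat than in skin (-1.95, SE 0.375, adjusted p = 1.88e-04). With normexp the first was 0.82 (adjusted p = 2.81e-05). Fat and liver differed by -0.11 (95% interval -0.93 to 0.70), which became -0.61 and passed with normexp (adjusted p = 6.36e-04) and with the authors' value table (adjusted p = 0.0239). The skin array that lay lower was KO 1, at -3.20.

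Gzmb, the granzyme B gene, was lowest by mean in skin, where Prf1 was highest. It ran from -4.72 to -1.70 in fat (median -2.02), from -5.63 to -3.38 in skin (median -4.06) and from -2.43 to -1.32 in liver (median -2.03). It was well above background on 0 of 7 skin arrays, and all of them lay below all liver arrays. Gzmb was at least 1.94-fold lower in skin than in liver (log2 difference -2.16, SE 0.439, adjusted p = 2.61e-04) and at least 1.30-fold higher in fat than in skin (1.58, SE 0.425, adjusted p = 0.00310). With normexp background correction these were -0.35 (adjusted p = 0.202) and -0.23 (adjusted p = 0.366), so both calls ended and the second turned its direction. Neither reached its bound with normexp. The fat minus skin call of Gzmb (limma) was also lost with the authors' value table (0.70, adjusted p = 0.101). It was lost as well with slide as a fixed term (1.19, adjusted p = 0.0563) and with KO arrays alone (1.24, adjusted p = 0.139). Prf1 and Gzmb, whose products share the same granules, thus differed between skin and liver in opposite directions as reported, but the Gzmb call did not hold with normexp. Each was also dim on its low side, with Gzmb well above background on 0 of 7 skin arrays and Prf1 on 2 of 6 liver arrays.

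Gzma, the granzyme A gene, was near background throughout. Its probe passed the background call on 3 of 7 fat arrays and on 0 arrays of skin and liver. The fitted differences passed the threshold for fat minus liver (0.57, SE 0.229, adjusted p = 0.0316) and for fat minus skin (0.74, adjusted p = 0.00665), but the bound gave no fold above 1, and normexp turned them to -0.36 and -0.73. The call between fat and liver was also lost without any 1 of fat KO 3, fat KO 4, fat WT 4, liver KO 1, liver KO 3 and liver WT 3 (0.47 to 0.55). Nkg7 was well above background on all 20 arrays, at 1.37 to 2.57 in fat (median 1.55), 0.10 to 1.80 in skin (median 1.4) and 0.43 to 3.01 in liver (median 2.21). Nkg7 was lower in skin than in liver by -0.78 (SE 0.338, adjusted p = 0.0469), and this call was lost without any 1 of 9 arrays, namely skin KO 1, KO 3, WT 1, WT 2 and WT 3 and liver KO 1, KO 2, WT 2 and WT 3 (-0.83 to -0.55), and with the value table (-0.45), the percentile over detected probes (-0.51) and quantile normalization (-0.60). Between fat and liver Nkg7 differed by -0.35 (adjusted p = 0.365), and by -0.69 (adjusted p = 0.0315) without liver WT 1. Its second probe gave -0.65 for skin minus liver and -0.28 for fat minus liver.
The probes of Gzma and Prf1 are shown because these 2 genes stood apart from the other killer cell genes in fat and in skin. Gzma lies on the minus strand at chr13:113885986-113886045 and Prf1 on the plus strand at chr10:60766528-60766587 in mm9.
Gzma: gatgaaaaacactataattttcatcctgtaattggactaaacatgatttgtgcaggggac
Prf1: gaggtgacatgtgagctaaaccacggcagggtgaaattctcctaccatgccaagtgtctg

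In all, 2 of 9 tested members passed the threshold between fat and liver, where 73.9% of all genes did, 7 of 8 between skin and liver (74.5% of all genes) and 6 of 9 between fat and skin (70.7%). Most genes differ between these tissues, so the counts for skin stand near the background and the count for fat against liver stands below it. Members whose arrays did not overlap were Cd8a, Cd8b1 and Gzmb between skin and liver (51.5% of all genes) and Cd3e, Cd8a and Cd8b1 between fat and skin (42.7%), with 0 between fat and liver (54.1%). Cd8a and Gzmb were well above background on 0 skin arrays and entered the comparisons with skin through the other tissue alone. Gzma entered its comparisons through fat alone. Such members had to differ to some degree, so the members' calls and non-overlap are partly set by that entry. The median difference of the members was -0.35 for fat minus liver (all genes 0.05), -0.23 for skin minus liver (all genes -0.17) and 0.43 for fat minus skin (all genes 0.21).

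**Figure D2:**
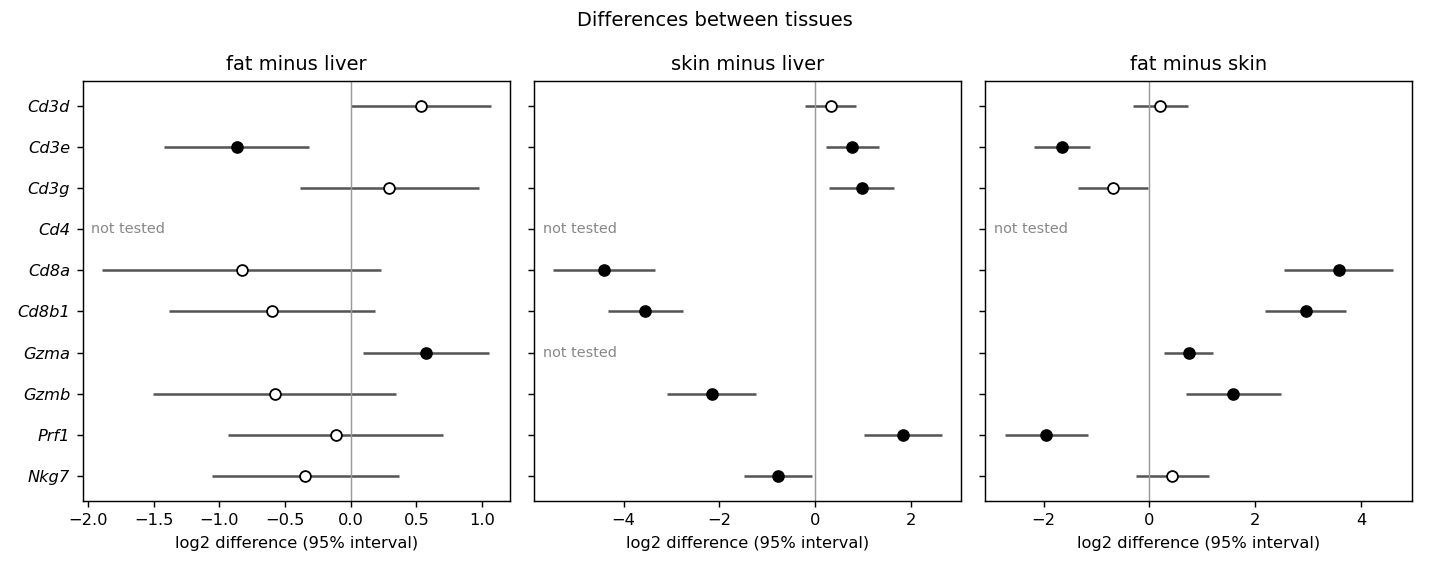
Log2 difference between tissues for each tested member (horizontal axis, with 95% intervals and its own range for each comparison), for fat minus liver, skin minus liver and fat minus skin; filled points passed an adjusted p of 0.05. Cd8a and Cd8b1 lie at -4.41 and -3.55 in skin minus liver, while Prf1 lies at 1.83.

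The lists of related genes give the setting in which the members differed; they were described by counts and medians only. Summed over the 17 lists, 70.8% of tests passed between fat and liver, 76% between skin and liver and 78.4% between fat and skin, against 73.9%, 74.5% and 70.7% of all genes, so the counts that follow stand near the background. A gene could also enter through 1 tissue alone, and the probe of 28, 15 and 32 of the 154, 129 and 153 list entries tested was well above background on 0 arrays of the other tissue. Such genes had to differ to some degree, so the lists' counts and medians are partly set by that entry.

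Of T cell receptor signalling genes, 10 were higher and 3 lower in fat than in liver of 17 tested (median 0.75). Against skin, 11 were higher and 2 lower in fat of 16 (median 1.03). In skin against liver, 2 rose and 7 fell of 13 (median -0.69). Fat minus liver was positive for the members Cd3d (0.53) and Cd3g (0.29), and negative for Cd3e (-0.87), Cd8a (-0.83) and Cd8b1 (-0.60). Among these members only Cd3e passed. Cd247, the gene of the zeta chain that completes the receptor, was higher than in liver both in fat (2.05, adjusted p = 6.34e-06) and in skin (2.30, adjusted p = 1.47e-06), with its probe well above background on 4 of 6 liver arrays. Zap70, the kinase that the zeta chain recruits, was lower than in liver both in fat (-4.56, adjusted p = 1.07e-13) and in skin (-3.82, adjusted p = 7.80e-13). Prkcq, which skeletal muscle also makes, was higher in skin than in liver (2.43).

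NK cell receptor genes were higher in fat than in liver for 9 of 12 tested and higher in fat than in skin for 9 of 12, with 0 lower in either, but 7 of the 12 were well above background on 0 liver arrays and 6 on 0 skin arrays. Of those read in both tissues, 4 of 5 were higher in fat than in liver and 4 of 6 higher in fat than in skin. Both counts include Fcgr3 and Tyrobp, whose fat means of 4.87 and 6.62 stood far above that of Klrd1 (-0.48). Myeloid genes were likewise higher in fat for 10 of 11 in both comparisons, and the part of myeloid cells in these counts was not tested. Klra7, an NK cell receptor gene, was not well above background on any liver or skin array and was at least 1.78-fold higher in fat than in liver (adjusted p = 6.43e-09) and at least 1.30-fold higher in fat than in skin (adjusted p = 6.89e-08). Between skin and liver 1 of 5 passed. Other granule genes split, with 5 higher and 1 lower of 10 for fat minus liver, 4 and 3 of 8 for skin minus liver and 4 and 3 of 10 for fat minus skin. Serpinb9, whose product blocks granzyme B, was not well above background on any skin array, and was at least 3.98-fold higher in fat than in skin (adjusted p = 8.47e-09) and at least 1.88-fold lower in skin than in liver (adjusted p = 3.76e-06). Like Gzmb it was lowest in skin, but it was higher in fat than in liver (1.08, adjusted p = 4.05e-04), where Gzmb was at -0.58. Rab27a and Unc13d, which bring granules to the membrane and also act in other cells, were higher in skin than in liver (1.57 and 1.99).

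T cell identity factors rose in 6 and fell in 4 of 11 in skin against liver. Gata3 and Bcl11b, both of which the epidermis also makes, were among those higher: Gata3, not well above background on any liver array, by at least 123-fold (adjusted p = 6.25e-12), and Bcl11b, read on 2 of 6 liver arrays, by a log2 difference of 5.35. In fat against liver 7 were higher and 1 lower of 12, with Il7r, the interleukin 7 receptor, read on 4 of 6 liver arrays, at 4.02, and in fat against skin 4 and 6 of 12. Checkpoint and costimulation genes gave 4 higher and 0 lower of 10 for fat minus liver, 2 and 3 of 7 for skin minus liver and 6 and 2 of 10 for fat minus skin. Among them Tnfrsf18 (4.50) and Tnfrsf4 (2.38) were higher in skin than in liver, and Pdcd1, the gene of PD-1, was lower (-2.27), its probe well above background on 1 of 7 skin arrays.

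Among genes of T and NK cell cytokines, 2 were higher and 2 lower of 9 in fat against liver, 3 and 3 of 7 in skin against liver and 5 and 3 of 10 in fat against skin. Ccl5, a chemokine that T and NK cells release, was lower in skin than in liver (-3.64). Ifng, the interferon gamma gene, was not well above background on any skin array and was at least 1.27-fold lower in skin than in liver (adjusted p = 0.0196), while Xcl1, read on 6 of 7 skin and 1 of 6 liver arrays, was higher (2.03). Homing receptors gave 7 higher and 4 lower of 13, 4 and 6 of 12, and 9 and 2 of 13 in the same 3 comparisons, and Itgae, which holds T cells in epithelium, was lower in fat than in skin (-1.45). Of chemokines and cytokines that draw or keep T cells, 3 and 5 of 10, 4 and 3 of 8, and 2 and 2 of 9 passed: Ccl27a, the keratinocyte chemokine, was higher in skin than in liver (3.37), and Cxcl9, an interferon-induced chemokine, was lower (-3.72). MHC class I genes, whose products show peptides to CD8 T cells, were lower in fat than in liver in 6 of 11 with 0 higher, gave 1 higher and 6 lower in skin against liver, and 1 and 5 in fat against skin.

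Markers of other leukocytes differed too. Pan-leukocyte genes were higher in fat than in liver in 9 of 9 and than in skin in 8 of 9 (medians 2.03 and 2.33), and myeloid genes in 10 of 11 in both (1.44 and 2.37). B cell genes were higher in fat than in liver in 6 of 8 and than in skin in 7 of 8, where 6 of the 8 were well above background on 0 skin arrays. In skin against liver, 2 pan-leukocyte genes were higher and 3 lower of 9, 0 myeloid genes higher and 4 lower of 10, and 1 B cell gene higher and 5 lower of 6. Red pulp, lymph node and follicular markers gave 2 higher and 1 lower of 4 in fat against liver, 1 and 1 of 3 in skin against liver, and 2 and 1 of 4 in fat against skin. Their part in the members' differences was not tested.

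In fat, no member passed the test between KO and WT, and the gene nearest to it was Gzma. Gzma stood at -3.45, -3.31, -3.03 and -2.86 in KO fat 1 to 4, against -4.40, -4.32 and -4.11 in WT fat 1, 3 and 4. All 4 KO arrays lay above all 3 WT arrays, and the probe was well above background on 3 of 4 KO and 0 of 3 WT arrays. Gzma averaged -3.16 ± 0.26 in KO fat (SD, n = 4) and -4.28 ± 0.15 in WT fat (SD, n = 3), a difference of 1.12 (SE 0.179, 95% interval 0.70 to 1.54), at least 1.67-fold with WT taken at its detection bound. Gzma entered the test through its KO arrays alone, so the difference and interval are set against WT values not above background, and with the stricter filter of 5 arrays it was not tested. The unadjusted p was 3.53e-04, and the adjusted p was 0.343 (limma, Benjamini-Hochberg). Of all genes tested in fat, 6.18% had every KO array above every WT array, 7.89% had an unadjusted p below 0.05 and 0.0131% passed the adjusted threshold.

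The authors' value table gave Gzma the same order with WT fat 2 included. On its log2 scale, whose scaling and centring are not stated, Gzma read 5.89, 6.09, 6.15 and 6.44 in KO fat 1 to 4, against 5.26, 5.25, 5.69 and 5.18 in WT fat 1 to 4. All KO values lay above all WT values (4.35% of all genes), and limma gave a difference of 0.80 (SE 0.163, adjusted p = 0.248). On the only slide that held both genotypes of fat, KO 2 exceeded WT 4 by 0.81. With slide as a fixed term the difference was 0.74 (adjusted p = 0.624), with slide as a random block 1.12 (adjusted p = 0.346), and with normexp background correction 0.43 (adjusted p = 0.720). The difference with normexp is smaller than the bound of 1.67-fold, which holds for the main processing only.

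**Figure D3:**
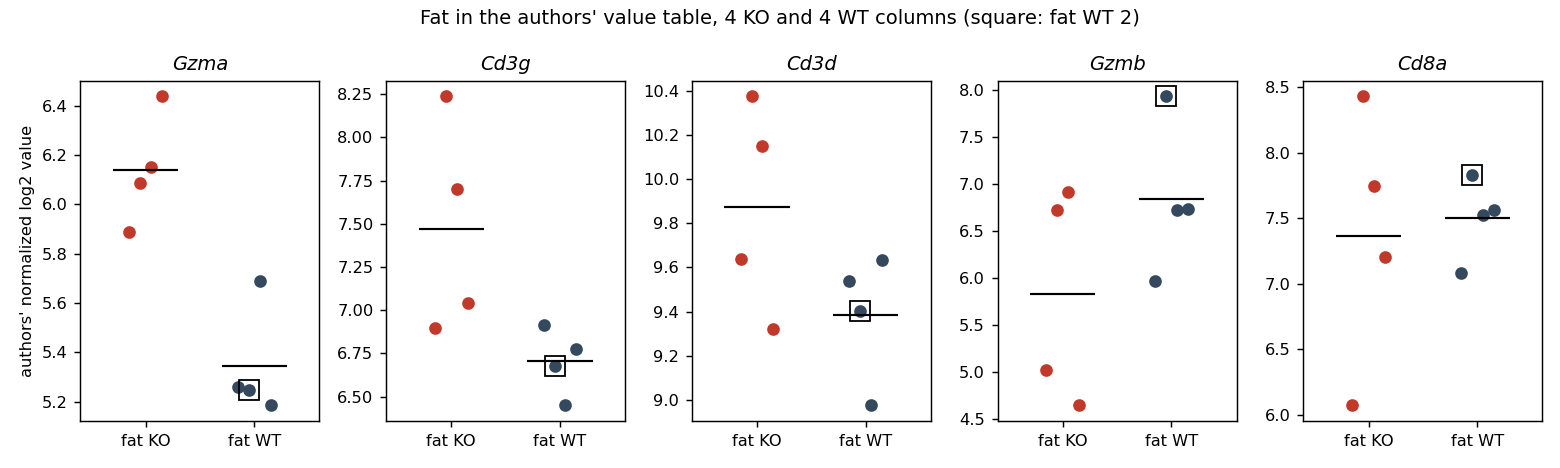
Log2 values of the authors' deposited table for Gzma, Cd3g, Cd3d, Gzmb and Cd8a in fat (vertical axis, with its own range for each gene), 1 point per sample, with the 4 KO samples left of the 4 WT samples, lines at the group means and a square around fat WT 2. For Gzma the KO samples lie between 5.89 and 6.44 and the WT samples between 5.18 and 5.69.

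Cd3g and Cd3d had positive differences in fat that did not pass. Cd3g stood at -1.63, -0.27, -0.82 and -1.62 in KO fat 1 to 4, against -1.62, -2.15 and -1.76 in WT fat 1, 3 and 4. The 2 genotypes overlapped, with KO 2 and KO 3 above all WT arrays and KO 1 and KO 4 beside the highest WT array. The difference was 0.76 (SE 0.358, 95% interval -0.08 to 1.6, adjusted p = 0.678), and it was 0.49 without KO 2. In the value table the difference of Cd3g was also 0.76 (adjusted p = 0.372). Cd3d stood at 0.96, 1.76, 1.57 and 0.84 in KO fat, against 0.82, 0.37 and 1.0 in WT fat, with overlap and a difference of 0.55 (SE 0.278, 95% interval -0.10 to 1.2, adjusted p = 0.693). Cd3e differed by 0.13 (95% interval -0.31 to 0.57).

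The CD8 genes and Gzmb varied more among KO fat arrays than among WT fat arrays. Cd8a stood at -2.47, 0.16, -0.47 and -1.29 in KO fat, against -1.04, -0.83 and -0.62 in WT fat, a difference of -0.19 with a 95% interval of -1.53 to 1.15. Cd8b1 stood at -0.11, 1.96, 1.28 and 0.71 in KO fat, against 0.84, 0.90 and 1.15 in WT fat, where the means were 0.96 and 0.96. Gzmb stood at -3.53, -1.93, -1.70 and -4.72 in KO fat, against -2.58, -1.95 and -2.02 in WT fat, a difference of -0.79 with a 95% interval of -2.47 to 0.90. In each of the 3 genes KO 1 and KO 4 lay below all WT arrays and KO 2 and KO 3 above all of them. In the value table this held less well: Gzmb in WT fat 2, at 7.93, lay above every KO sample, and Cd8a in KO fat 4, at 7.21, lay above WT fat 1, at 7.08. The difference in spread was not tested. Gzmb lies on chromosome 14, 22.7 megabases from Mapk8. Nkg7 and Prf1 differed by 0.30 (adjusted p = 0.821) and 0.27 (adjusted p = 0.883).

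In skin, 0 of 6 tested members passed (0.0148% of all genes), and the differences ran from -0.60 to 0.34 around an all-gene median of -0.10. Cd3g gave 0.34 (95% interval -0.14 to 0.82), Nkg7 -0.55 (-1.34 to 0.23) and Cd8b1 -0.46 (-1.34 to 0.41). Prf1 stood at -3.20, -1.02, -1.16 and -1.13 in KO skin, against -0.83, -1.17 and -1.09 in WT skin. KO 1 alone stood apart, and the difference was -0.60 with a 95% interval of -1.77 to 0.57. Without KO 1 it was -0.07. The other skin differences were -0.06 for Cd3d and -0.23 for Cd3e.

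In liver, 0 of 7 tested members passed (0.0226% of all genes), and the 95% intervals were wide. Cd8a stood at 0.36, 0.84 and 0.06 in KO liver, against -2.32, 0.60 and -0.10 in WT liver, a difference of 1.03 (SE 0.701, 95% interval -0.63 to 2.69, adjusted p = 0.998). The groups overlapped, and WT 1 lay below every other liver array. Cd8b1 stood at 1.82, 2.21 and 1.44 in KO liver, against 0.06, 2.43 and 1.44 in WT liver, and Nkg7 at 2.10, 3.01 and 1.86 in KO liver, against 0.43, 2.70 and 2.32 in WT liver. Both had a difference of 0.51, and in both WT 1 was the lowest array. Cd3d gave 0.37, Cd3g 0.48, Cd3e -0.36 and Gzmb 0.20. Without WT 1 the difference was 0.17 for Cd8a, -0.12 for Cd8b1, -0.18 for Nkg7, -0.17 for Cd3d and -0.24 for Cd3g, so that the last 4 changed sign.

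**Figure D4:**
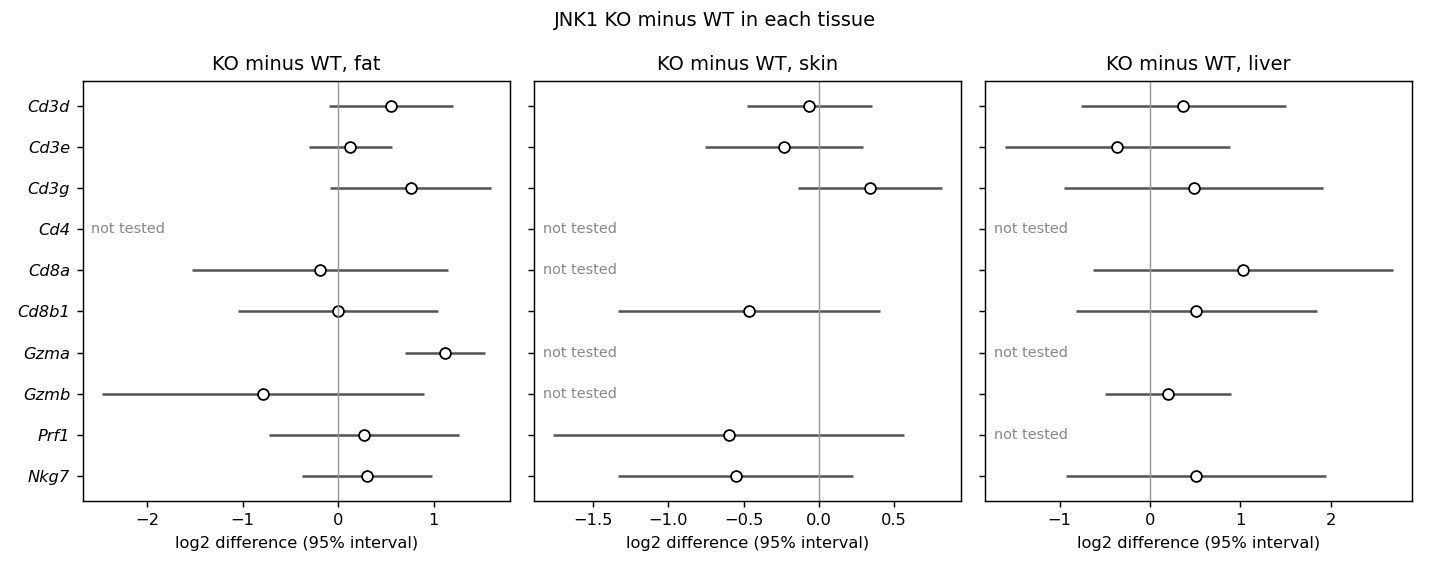
Log2 difference KO minus WT for each tested member (horizontal axis, with 95% intervals and its own range for each tissue) in fat, skin and liver; open points did not pass. Gzma in fat lies at 1.12 with an interval of 0.70 to 1.54, and no member passed an adjusted p of 0.05 in any tissue.

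The median over tested members was 0.27 in fat, -0.35 in skin and 0.48 in liver, beside all-gene medians of 0.06, -0.10 and -0.0049. Unadjusted p-values below 0.05 were 1 of 9, 0 of 6 and 0 of 7 among members, beside 7.89%, 7.90% and 6.04% of all genes. The 17 lists of related and marker genes gave 0 calls in 150, 112 and 118 tests in fat, skin and liver. In fat, 12 of 16 T cell receptor signalling genes had positive differences (median 0.24), as did 8 of 12 NK receptor genes (0.40), 9 of 10 checkpoint genes (0.32) and 6 of 8 B cell genes (0.41). Red pulp, lymph node and follicular markers were positive in 4 of 4 (0.52) and T and NK cell cytokine genes in 6 of 9 (0.26). Hepatocyte markers were positive in 3 of 3 (1.07) and skeletal muscle markers in 0 of 5 (-0.50). Several other lists lay nearer the all-gene median of 0.06. T cell identity factors were positive in 7 of 12 (0.14) and other granule genes in 7 of 10 (0.12). Homing receptors were positive in 9 of 13 (0.06) and MHC class I genes in 5 of 11 (-0.04). These counts were not tested. Myeloid genes were positive in 1 of 11 (median -0.70) and pan-leukocyte genes in 0 of 9 (-0.48), with Itgam at -1.34 (adjusted p = 0.517) and Cd52 at -1.35 (adjusted p = 0.517). Il7, which keeps T cells alive, was at 0.61 (adjusted p = 0.517).

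The effect of genotype was also compared between tissues, and 0 members passed for fat minus liver (0.0564% of all genes), skin minus liver (0.202%) or fat minus skin (0.435%). Gzma gave the smallest adjusted p in 2 of these comparisons, with 1.84 for the fat effect minus the liver effect (SE 0.457, adjusted p = 0.263) and 1.46 for fat minus skin (adjusted p = 0.224). It was near background in liver and skin, where KO liver read -4.88, -4.02 and -5.08, against -3.86, -3.63 and -4.31 in WT liver. For skin minus liver the smallest was Nkg7 at -1.06 (adjusted p = 0.666).

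Between arrays of 1 group in fat and liver, 5 of the 7 members compared (Cd3d, Cd3g, Cd8a, Cd8b1 and Nkg7) went up and down together, while Gzmb followed them less closely and Cd3e did not. Gzma, Prf1 and Cd4 were not included. Correlations were taken on deviations from group means for 27 pairs, with 100000 permutations and Benjamini-Hochberg adjustment over the pairs. Over the 13 arrays of fat and liver, Cd8a and Cd8b1 had r = 0.986 and rho = 0.967 (adjusted p = 0.00189 by permutation), and r = 0.973 without the 2 farthest arrays. Cd3d and Cd3g had r = 0.969 and rho = 0.918 (adjusted permutation p = 0.00497), and r = 0.943 without the 2 farthest. Cd3g and Nkg7 gave r = 0.956 and rho = 0.940, Cd3g and Cd8a r = 0.918 and rho = 0.940, and Cd8a and Nkg7 r = 0.912 and rho = 0.951. Their adjusted permutation p-values were 0.00504, 0.00504 and 0.00189, and r without the 2 farthest arrays was 0.898, 0.835 and 0.908.

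These relations held within fat and within liver. In fat (7 arrays) and liver (6 arrays) r was 0.994 and 0.98 for Cd8a with Cd8b1, 0.939 and 0.981 for Cd3d with Cd3g, and 0.864 and 0.991 for Cd3g with Nkg7. Without liver WT 1 the 3 values over 12 arrays were 0.978, 0.927 and 0.883. With slide removed as well as group, an alternative chosen after seeing the data that leaves 5 residual degrees of freedom among the 13 arrays on 5 slides, they were 0.908, 0.985 and 0.752, against 0.574 for Cd8a with Nkg7 and 0.667 for Cd3g with Cd8a. In skin the relations did not hold, with r = -0.574 (rho = -0.714) for Cd3d with Cd3g and r = 0.235 (rho = -0.179) for Cd3g with Nkg7 over 7 arrays, and the Cd8a pairs were not computed there.

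Cd3e was the exception. Over fat and liver it had r = 0.0727 with Cd3d (rho = 0.121, adjusted permutation p = 0.915) and r = 0.0037 with Cd3g (rho = -0.0495, adjusted permutation p = 0.991). Within skin, however, Cd3e and Cd3d had r = 0.805. Cd3e has a second probe, which was well above background on 0 arrays, so a check by another probe was not possible. Gzmb had r between 0.528 and 0.580 with Cd3d, Cd3g, Cd8a, Cd8b1 and Nkg7, with adjusted permutation p-values of 0.0363 to 0.169. By rank it was closer to them, with rho between 0.665 and 0.797 (adjusted permutation p-values of 0.0216 to 0.0644). Without the 2 farthest arrays r was 0.653 to 0.774.

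**Figure D5:**
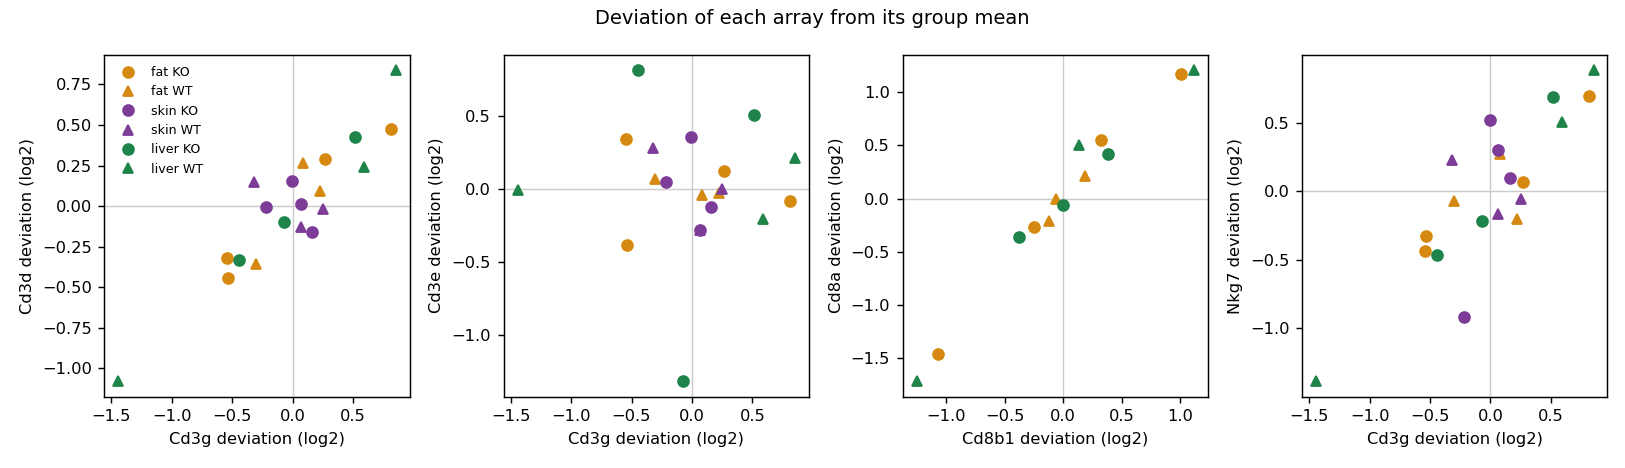
Deviation of each array from its group mean (log2) for 4 pairs of members: Cd3d, Cd3e and Nkg7 against Cd3g, and Cd8a against Cd8b1; circles are KO and triangles WT, coloured by tissue, with skin left out of the Cd8 pair. Cd3d rises with Cd3g (r = 0.969 over the 13 arrays of fat and liver), Cd8a with Cd8b1 (r = 0.986) and Nkg7 with Cd3g (r = 0.956), while Cd3e shows no such trend.

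Single arrays stood out across members. Liver WT 1 was lowest of the 6 liver arrays for 6 of 7 members, with a mean deviation from the tissue of -1.23, where the T cell receptor signalling list deviated by -0.56, B cell markers by 0.20 and pan-leukocyte markers by -0.06. Fat KO 2 was highest of 7 for 6 of 9 members, at 0.76, and there B cell markers stood at 0.90, red pulp, lymph node and follicular markers at 0.86 and pan-leukocyte markers at 0.18. Liver KO 2 was highest for 4 of 7 members, at 0.70, with the red pulp, lymph node and follicular list, of 2 genes there, at 1.89. On that array T cell receptor signalling stood at 0.48, B cell markers at 0.49 and NK cell receptors at 0.43. Pan-leukocyte markers stood at 0.39, myeloid markers at 0.33 and MHC class I genes at -0.03. Skin KO 1, the array with the fewest probes well above background, was at -0.60 but lowest for only 2 of 6 members. On it T cell receptor signalling stood at 0.09, NK cell receptors at 0.11, pan-leukocyte markers at 0.09 and B cell markers at -0.51. The part of other cells in these deviations was not tested.

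Genes whose pattern was most like the members' were sought among 13618 genes well above background on at least 10 of 20 arrays, by Pearson's r over the 20 arrays. The levels of the mean of Cd3d, Cd3e and Cd3g were matched best by ENSMUST00000103299 (r = 0.891), U07661 (0.877), Tnfrsf4 (0.810), Cd96 (0.787) and Rasgrp1 (0.785), where the first 2 carry only an accession as their name. On deviations from group means the best were Lck, the kinase bound to CD4 and CD8 (0.880), Cst7 (0.834), Ptprcap (0.824), ENSMUST00000103299 (0.821) and X12401 (0.802). For the mean of Gzma, Gzmb, Nkg7 and Prf1 the best by level were Psmb8 (0.690), Batf2 (0.688), Ifng (0.667), Cst7 (0.663) and Psmb9 (0.653). By deviation they were Unc93b1 (0.883), Batf2 (0.881), Cd96 (0.872), Psmb8 (0.850) and Cst7 (0.847). These arrays share tissue and signal strength, so the values describe likeness only.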

How the data were processed

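Gene expression was measured in fat, skin and liver of JNK1 KO and WT mice on one-colour arrays. Per the submitters' processing notes, the authors used Agilent Feature Extraction 10.7.3.1 and limma. Per the file headers, the deposited scanner files hold the processed intensity of each spot, already background-corrected by the scanner software. The authors' deposited value table holds log2 values of 21 arrays, whose scaling and centring are not given in the sources used here. Its column medians run from 5.755 to 6.0045.

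The members and gene lists were chosen with earlier results of these data known. Intensities were put on the log2 scale, and each array's 75th percentile was subtracted. Spots of a probe were averaged, and each gene name was read from the probe with the highest mean. Genes whose probe the scanner software called well above background on 3 or more arrays of a tissue (of either tissue, between tissues) were tested with limma 3.58.1 in R 4.3.3, with Benjamini-Hochberg adjustment over all of them and a threshold of 0.05. KO and WT were compared within each tissue. Tissues, and genotype effects between tissues, were compared in 1 fit of 6 group means over 20 arrays, each genotype weighing equally. Of fat WT 2 only the value table's column entered, since its scanner file resembled skin. The number of arrays limits the precision. The scripts were tested on simulated data. Alternatives covered background correction, normalization, the value table, the filter, the probe, slides, replicate numbers and left-out arrays. Named list genes were up to 4 per list with the smallest p in a comparison, with a few named again in the other comparisons. Promoters came from RefSeq (GRCm38.p6) and were matched by symbol. Scanner coordinates are mm9.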

Additional observations from a re-analysis of the deposited data

Results flagged for a closer look

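In 26 groups of 4 samples, the highest or lowest value of a member stood apart from the other 3 in 2 cases, and chance alone gives about 1 in 20 groups. Prf1 in KO skin 1 read -3.20, against -1.16 to -1.02 in the other 3 KO skin arrays, and the gap was 0.933 of the group's range. The same array had the fewest probes well above background of the 20 used, at 38.9%. Gzma in WT fat 3 of the authors' value table read 5.69, against 5.18 to 5.26 in the other 3 WT fat samples, a gap of 0.852 of the range, and it stayed below the lowest KO fat value of 5.89. On the scanner scale WT fat 3 was not apart, at -4.32 beside -4.40 and -4.11.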

How the results depend on the processing

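Between KO and WT, 0 members passed under every alternative run, 19 in fat, 19 in skin and 17 in liver, and 0 under the 21 to 23 alternatives run for genotype effects between tissues. All-gene calls ranged from 0 to 56 in fat (2 as reported), 0 to 131 in skin (2) and 0 to 27 in liver (3), and for genotype effects from 2 to 49 (9, fat minus liver), 2 to 100 (30, skin minus liver) and 0 to 142 (70, fat minus skin). Between tissues they ranged from 9606 to 17084 (11803), 9217 to 11904 (11047) and 8934 to 20328 (11372). With replicate number as a block 0 members passed in any tissue, and Gzma in fat was 1.17 (adjusted p = 0.484). Same-numbered arrays had deviations correlated between -0.227 and 0.187, so the numbers were not read as pairs.

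Members called between fat and liver (2: 1 higher, 1 lower) became 5 with normexp background (1 higher, 4 lower) and 5 with the authors' value table (2 higher, 3 lower), 4 with slide as a fixed term, and 1 with the stricter filter of 5 arrays, with the scanner file of fat WT 2 kept, with KO arrays alone and with WT arrays alone. Leaving out 1 array gave 1 to 5: 5 without liver WT 1, and 1 without liver KO 1, liver KO 3, fat KO 3, liver WT 3 or fat WT 4. Quantile normalization gave 2 higher and 1 lower there and 4 and 3 in fat minus skin, where 4 higher and 2 lower became 2 and 4 with normexp and 2 and 3 with the value table. The other counts stayed between 5 and 7. Gzma turned to -0.36 with normexp and -0.35 with WT arrays alone in fat minus liver, and to -0.73 (adjusted p = 0.00312) with normexp in fat minus skin. Gzmb turned to -0.23 with normexp in fat minus skin. The causes were not tested. Of the called tissue differences of single members, 321 values kept their call and direction, 32 lost the call and 4 reversed. Scaling moved the all-gene median by -0.28 (normexp, fat minus skin) to 0.30 (percentile over probes detected on all arrays, fat minus liver). Slide as a random block could not be fitted in liver. Signal over background limits Cd4, Gzma and, in skin, Cd8a and Gzmb. The percentile over probes detected on all arrays was chosen after seeing the data.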

Other observations

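A probe for Trgv2, a variable segment of the gamma chain of the gamma delta T cell receptor, was looked at after its values were seen. It read -0.50 to 0.63 in skin (median -0.03, well above background on 7 of 7 arrays), -1.99 to -0.97 in fat (median -1.70, 7 of 7) and -4.53 to -2.32 in liver (median -4.02, 1 of 6). The 3 ranges did not overlap, which for 2 tissues at a time held for 42.7% (fat and skin) to 54.1% (fat and liver) of all genes. Skin is the tissue in which Cd8a was well above background on 0 of 7 arrays while Cd8b1 was well above it on 6 and Cd3d, Cd3e and Cd3g on all 7. A link between these levels and those of Trgv2 was not tested. The other Trgv2 probes passed that call on 1 fat array or fewer and on 0 arrays of skin and liver.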
